A study of Homo sapiens with 12 samples.

Results

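CDKN2A and 7 genes that surround it on the short arm of chromosome 9 were followed through 12 mRNA sequencing libraries of the multiple myeloma lines MM1S and MM1R. The genes are CDKN2A, CDKN2B, CDKN2B-AS1, MTAP, KLHL9, HACD4, FOCAD and MLLT3, which are 8 of the 43735 genes of the count table. CDKN2A was selected on its difference between the lines in these libraries, and the others were selected by their position beside it, with earlier results of these data known. The question was whether the difference between the lines was limited to CDKN2A or spanned the locus. Differences between the lines in the 8 genes are therefore given as a description, with no test.

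MM1S and MM1R are plasma cell myeloma lines established from the same patient. MM1S is sensitive to glucocorticoids, the steroids used in myeloma therapy, and MM1R is resistant. Withaferin A (WA) is a plant-derived steroidal lactone that binds cysteines covalently. The 4 groups were untreated MM1S, MM1S with 1 µM WA for 3 h, untreated MM1R and MM1R with the same WA treatment, with 3 libraries each. Every culture grew in the same serum-supplemented RPMI-1640 medium. Whether the untreated cultures received a solvent is not given in the sources used here. The libraries of MM1S came from cell passages 16, 22 and 23, and those of MM1R from passages 4, 6 and 7. Each passage gave an untreated culture and a WA culture. Since the passages of the lines do not overlap, line and passage number cannot be told apart, and each line is a single line as a model of sensitivity or resistance. The p-values below measure the spread between passages of a line.

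The libraries held 17625110 to 19368343 counted reads (median 18555625), and 14085 genes had enough reads to be tested. Of 8 plasma cell markers, 7 were above 1 CPM (reads of a gene per 1e6 counted reads) in every library, and CD27 had at most 8 reads. Among markers of other cell types, CD3E, CD68 and COL1A1 exceeded 1 CPM in at least 1 library, and CD3G, COL1A2 and COL3A1 had 0 reads in all libraries. The B cell markers MS4A1, PAX5 and CD22 had at most 3 reads in any library. COL1A1 ranged from 0.447 to 17.9 CPM, and the summed stromal markers were 0.497 to 1.09 CPM in untreated MM1S, 2.30 to 6.55 in MM1S with WA, 1.52 to 2.34 in untreated MM1R and 5.29 to 17.9 in MM1R with WA. The part of these markers in the results was not tested.

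The locus is among the best known tumor suppressor loci of the human genome. CDKN2A encodes 2 unrelated proteins from alternative first exons: p16INK4a binds CDK4 and CDK6 and keeps the retinoblastoma protein RB1 active as a brake on the cell cycle, and p14ARF binds and inhibits the ubiquitin ligase MDM2. CDKN2B encodes p15INK4b, a paralog of p16INK4a with the same kinase targets. CDKN2B-AS1, also named ANRIL, is a long noncoding RNA transcribed in the opposite direction and has been described in Polycomb silencing of its neighbors. MTAP is the methylthioadenosine phosphorylase of the methionine salvage pathway and is often lost together with CDKN2A when tumors delete the region. KLHL9 is a substrate adaptor of CUL3 ubiquitin ligases, HACD4 is a member of the 3-hydroxyacyl-CoA dehydratase family, FOCAD encodes the focal adhesion protein focadhesin and MLLT3 encodes AF9, a reader of acetylated histones that works with DOT1L and elongation factors. Deletion, promoter methylation and Polycomb repression are all known ways in which the CDKN2A locus is silenced in tumors. None of them was measured here.

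On the human genome build GRCh37, CDKN2A lies at chr9:21967751-21995300 on the minus strand, with 3 exons in its canonical transcript. CDKN2B (chr9:22002902-22009304, minus strand, 2 exons) starts 14004 bp from the start of CDKN2A. CDKN2B-AS1 (chr9:21994138-22128102, plus strand) starts 1162 bp inside CDKN2A and runs across CDKN2B. MTAP (chr9:21802635-21937650, plus strand, 8 exons) starts 192665 bp away on the telomeric side. Farther out on that side come KLHL9 (chr9:21329664-21335403, minus strand, 1 exon), HACD4 (chr9:20999508-21031639, minus strand), FOCAD (chr9:20658308-20995954, plus strand) and MLLT3 (chr9:20341667-20622498, minus strand, 1372802 bp from the start of CDKN2A). Exons of CDKN2B-AS1 and CDKN2A share 593 bp on opposite strands. CDKN2B lies wholly within CDKN2B-AS1, with 0 bp of shared exon. Since the strand setting of the counting is not given in the sources used here, reads of the shared 593 bp cannot be assigned to either gene, and counts per gene cannot separate p16INK4a from p14ARF.

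The promoter windows below span 250 bases before to 50 bases after a start annotated in RefSeq, which can differ from the gene start given above. They are shown for the genes that set the lines apart and for MTAP, the nearest gene on the telomeric side that was read in both lines, so that the starts can be compared. They are RefSeq sequences of assembly GRCh38.p14, written 5′ to 3′ on the strand of the gene and placed on GRCh37 by exact match, and capitals mark CG dinucleotides, the sites of DNA methylation. CDKN2A has windows upstream of the first exon of p14ARF (chr9:21995274-21995573) and upstream of the first exon of p16INK4a (chr9:21974807-21975106). The other windows are chr9:22009255-22009554 for CDKN2B, chr9:21994540-21994839 for CDKN2B-AS1 and chr9:21802385-21802684 for MTAP. The CDKN2B-AS1 window lies downstream of the gene start given above (21994138). The FOCAD window, counted below, also lies downstream of its gene start.
CDKN2A, p14ARF start: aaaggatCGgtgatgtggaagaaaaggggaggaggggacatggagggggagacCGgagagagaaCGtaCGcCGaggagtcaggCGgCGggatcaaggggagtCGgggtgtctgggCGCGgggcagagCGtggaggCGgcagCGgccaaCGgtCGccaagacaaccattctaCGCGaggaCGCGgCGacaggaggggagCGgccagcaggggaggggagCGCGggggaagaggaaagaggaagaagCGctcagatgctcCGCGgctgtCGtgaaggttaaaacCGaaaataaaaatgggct
CDKN2A, p16INK4a start: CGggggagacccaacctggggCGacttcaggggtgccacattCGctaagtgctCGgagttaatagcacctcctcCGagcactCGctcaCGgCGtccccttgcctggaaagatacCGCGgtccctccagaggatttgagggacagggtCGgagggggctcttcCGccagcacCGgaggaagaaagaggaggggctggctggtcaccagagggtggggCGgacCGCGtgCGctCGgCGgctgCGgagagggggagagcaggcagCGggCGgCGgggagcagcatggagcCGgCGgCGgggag
CDKN2B: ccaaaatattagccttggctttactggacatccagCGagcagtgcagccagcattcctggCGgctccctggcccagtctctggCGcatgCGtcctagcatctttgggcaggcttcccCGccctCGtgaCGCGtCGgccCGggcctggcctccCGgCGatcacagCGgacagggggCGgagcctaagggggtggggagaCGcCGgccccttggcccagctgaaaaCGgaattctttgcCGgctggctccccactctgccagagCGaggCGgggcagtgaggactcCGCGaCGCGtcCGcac
CDKN2B-AS1: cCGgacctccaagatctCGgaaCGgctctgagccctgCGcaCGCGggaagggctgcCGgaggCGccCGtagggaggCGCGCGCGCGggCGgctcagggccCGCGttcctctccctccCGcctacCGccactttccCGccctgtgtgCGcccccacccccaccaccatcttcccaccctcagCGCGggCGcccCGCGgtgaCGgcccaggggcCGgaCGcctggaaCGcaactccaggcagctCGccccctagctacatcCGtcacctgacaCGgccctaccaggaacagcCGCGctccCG
MTAP: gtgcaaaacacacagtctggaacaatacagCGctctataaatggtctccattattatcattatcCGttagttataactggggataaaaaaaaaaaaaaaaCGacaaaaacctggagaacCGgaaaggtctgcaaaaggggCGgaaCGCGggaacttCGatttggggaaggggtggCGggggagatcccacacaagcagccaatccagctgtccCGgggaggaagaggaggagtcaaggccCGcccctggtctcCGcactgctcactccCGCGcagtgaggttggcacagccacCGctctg

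All 5 windows held more CG dinucleotides than the median of 14 over 35116 windows of 300 bases. The p14ARF window held 28, the p16INK4a window 26, CDKN2B 25, CDKN2B-AS1 36 and MTAP 15. Of the other members, FOCAD had 39, MLLT3 24, HACD4 24 and KLHL9 19. The GC box letters GGGCGG, searched on both strands, occurred 0 times in the p14ARF window and 2 times each in the windows of p16INK4a, CDKN2B, CDKN2B-AS1 and MTAP. They occurred 4 times in FOCAD, 3 times in MLLT3, 2 times in HACD4 and 0 times in KLHL9, and 45.0% of all windows hold them. These are descriptions of letters. No methylation or binding was measured.

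CDKN2A was read almost exclusively in MM1R. Untreated MM1S had 0 reads at passage 16, 2 at passage 22 and 5 at passage 23, whereas untreated MM1R had 1044 at passage 4, 1616 at passage 6 and 1724 at passage 7. With WA, MM1S had 0, 1 and 2 reads at the same passages and MM1R had 1096, 1471 and 1815. Every MM1R library was above every MM1S library. In CPM, after scaling of the libraries by TMM factors (trimmed mean of M values), the levels were 0.117 ± 0.125 (SD, n = 3) in untreated MM1S, 0.0542 ± 0.0546 in MM1S with WA, 81.2 ± 24.0 in untreated MM1R and 83.9 ± 26.0 in MM1R with WA. A count of 0 allows up to 3 reads, which is 0.149 to 0.183 CPM in these libraries. The level in untreated MM1R was 674 times that in untreated MM1S, with a 95% counting interval of 327 to 1678 that covers counting error only. With WA the ratio was 1531 (interval 524 to 7428), resting on 3 reads in MM1S. Without the untreated MM1S library of passage 23, which held 5 of the 7 reads, the untreated log2 ratio rose from 9.40 to 10.60, and without that of passage 16 it was 8.82. In bulk RNA, fewer expressing cells and less RNA per cell cannot be told apart.

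Within MM1R, CDKN2A varied with passage. Passage 4 was lowest in both cultures, with 54.3 CPM untreated and 58.5 CPM with WA, while passages 6 and 7 lay between 82.8 and 110 CPM. The 2 cultures of a passage were closer to each other than to the other passages, and their log2 changes with WA were 0.10 at passage 4, -0.10 at passage 6 and 0.14 at passage 7.

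CDKN2B, the neighboring INK4 gene, showed the same split at a much lower level. MM1S had a single read in its 3 untreated libraries, at passage 22, and 0 reads in its 3 libraries with WA. Untreated MM1R had 61, 68 and 52 reads at passages 4, 6 and 7, and 77, 76 and 86 with WA. All MM1R libraries exceeded all MM1S libraries. The level was 3.31 ± 0.370 CPM in untreated MM1R and 4.54 ± 0.607 with WA (n = 3 each). The untreated ratio of MM1R to MM1S was 195, with a wide counting interval of 34.5 to 7740. With WA, MM1R was at 83.5 times the floor of 3 reads over the 3 MM1S libraries, and the counting interval of the ratio began at 67.4.

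CDKN2B-AS1 was likewise read almost only in MM1R. Untreated MM1S had 3, 0 and 0 reads at passages 16, 22 and 23, and 0, 1 and 1 with WA. Untreated MM1R had 38, 35 and 39 reads at passages 4, 6 and 7, and 37, 37 and 53 with WA. The groups did not overlap in either treatment. The untreated ratio was 40.2 (counting interval 13.4 to 198) and the ratio with WA was 66.6 (18.1 to 556). Because 593 bp of its exons face exons of CDKN2A, part of these reads may belong to CDKN2A.

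Over the 6 MM1R libraries there were 14.2 to 33.2 reads of CDKN2A per read of CDKN2B, with the lowest values at passage 4 in each treatment. Per read of CDKN2B-AS1 there were 27.5 to 46.2 reads of CDKN2A. The latter ratio rests on 35 to 53 reads of CDKN2B-AS1 per library. Whether either ratio varied beyond counting error was not tested. Per kb of annotated exon, untreated MM1R had 20.9 CPM of CDKN2A, 0.828 of CDKN2B and 0.101 of CDKN2B-AS1. On the same scale of level per length, MTAP had 3.45, FOCAD 3.84, KLHL9 2.64 and MLLT3 5.47, so CDKN2A was the highest of the 8 genes in untreated MM1R. In untreated MM1S, MLLT3 was highest at 4.99 CPM per kb, followed by MTAP at 4.38, KLHL9 at 3.23 and FOCAD at 3.15, of which the last pair differed by less than the spread of KLHL9 over its libraries (3.03 to 3.55). HACD4, CDKN2A, CDKN2B and CDKN2B-AS1 were all at or below 0.0302 CPM per kb there. These lengths are unions of all annotated exons, which lowers the value of genes with long, rarely used exons.

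**Figure D1:**
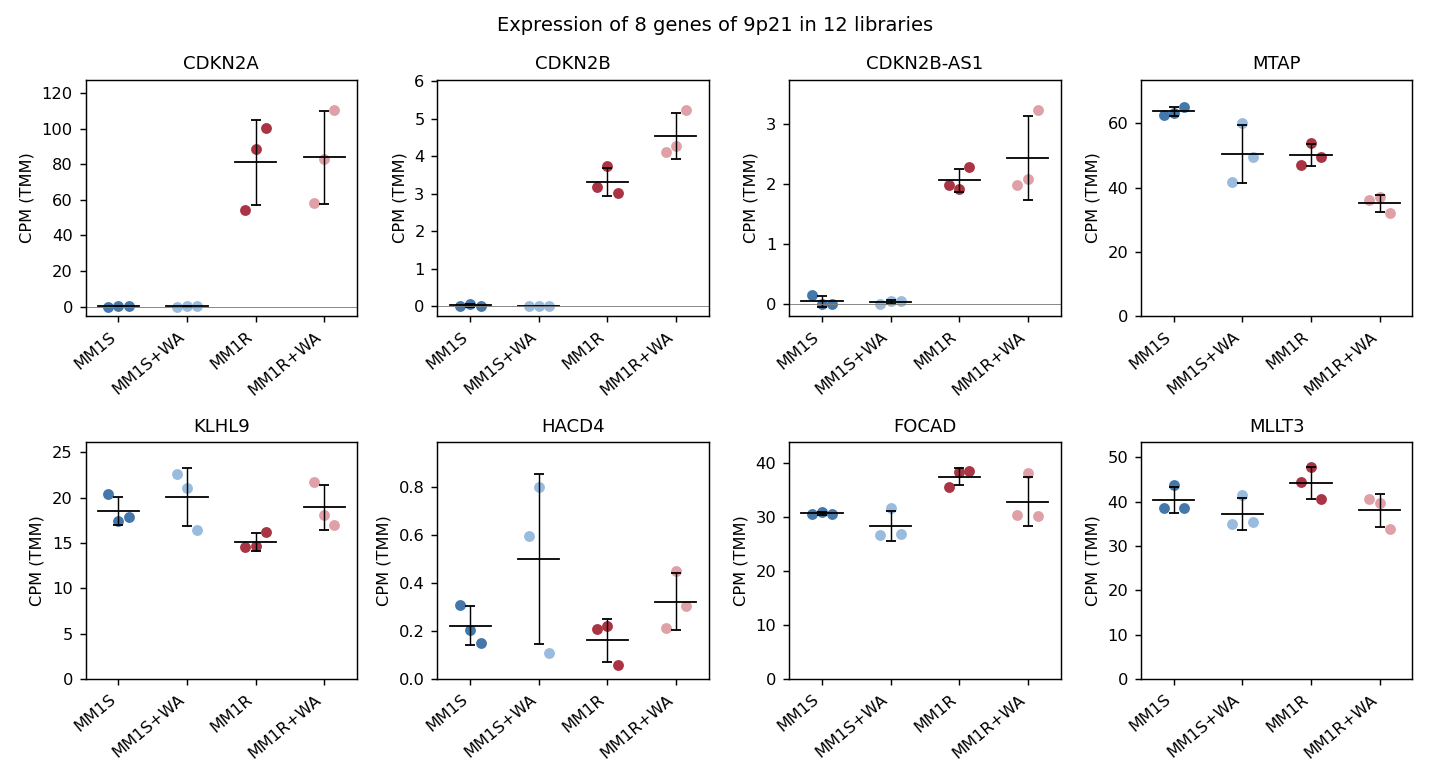
Level of each of the 8 genes in CPM (TMM scaled; vertical axes differ between panels) in the 4 groups, in which each point is a library (from left to right in order of passage), the horizontal line is the mean and the bars are the SD (n = 3). CDKN2A, CDKN2B and CDKN2B-AS1 lay near 0 in all 6 MM1S libraries, and the other 5 genes were not split in this way.

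The split ended between CDKN2A and MTAP. MTAP was read in every library, at 63.6 ± 1.33 CPM in untreated MM1S and 50.2 ± 3.42 in untreated MM1R. Untreated MM1S had 1209, 1221 and 1310 reads at passages 16, 22 and 23, and untreated MM1R had 904, 981 and 850 at passages 4, 6 and 7. All MM1S libraries were above all MM1R libraries, opposite to CDKN2A, with a ratio of MM1S to MM1R of 1.27 (counting interval 1.21 to 1.33). With WA the ratio was 1.43 and the groups again did not overlap.

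KLHL9 was also slightly higher in untreated MM1S, at 17.4 to 20.4 CPM against 14.5 to 16.3 in MM1R, a ratio of 1.23. With WA the ranges were 16.5 to 22.6 CPM in MM1S and 17.0 to 21.7 in MM1R, and they overlapped. FOCAD was higher in untreated MM1R, at 35.6 to 38.5 CPM against 30.5 to 31.0 in MM1S, a ratio of MM1R to MM1S of 1.22. With WA the FOCAD ranges overlapped (30.1 to 38.1 CPM in MM1R and 26.6 to 31.6 in MM1S). MLLT3 overlapped in both treatments, at 40.6 to 47.7 CPM in untreated MM1R and 38.6 to 43.8 in untreated MM1S. HACD4 was close to the limit of detection in both lines, with 1 to 6 reads in untreated libraries and 2 to 15 with WA, and was not tested.

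Thus 6 of the 8 genes had untreated groups that did not overlap, 4 higher in MM1R and 2 higher in MM1S, beside 32.3% of all tested genes. With WA this held for 4 genes (CDKN2A, CDKN2B and CDKN2B-AS1 higher in MM1R and MTAP higher in MM1S), beside 29.1% of all tested genes. The contrast served to choose CDKN2A, so nothing is read from these counts. By size alone, the 3 genes with untreated log2 ratios of 5.33 (CDKN2B-AS1) and more stood apart from the others, of which HACD4 (-0.42, on 9 reads in MM1R and 13 in MM1S) and MTAP (-0.34) came next.

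**Figure D2:**
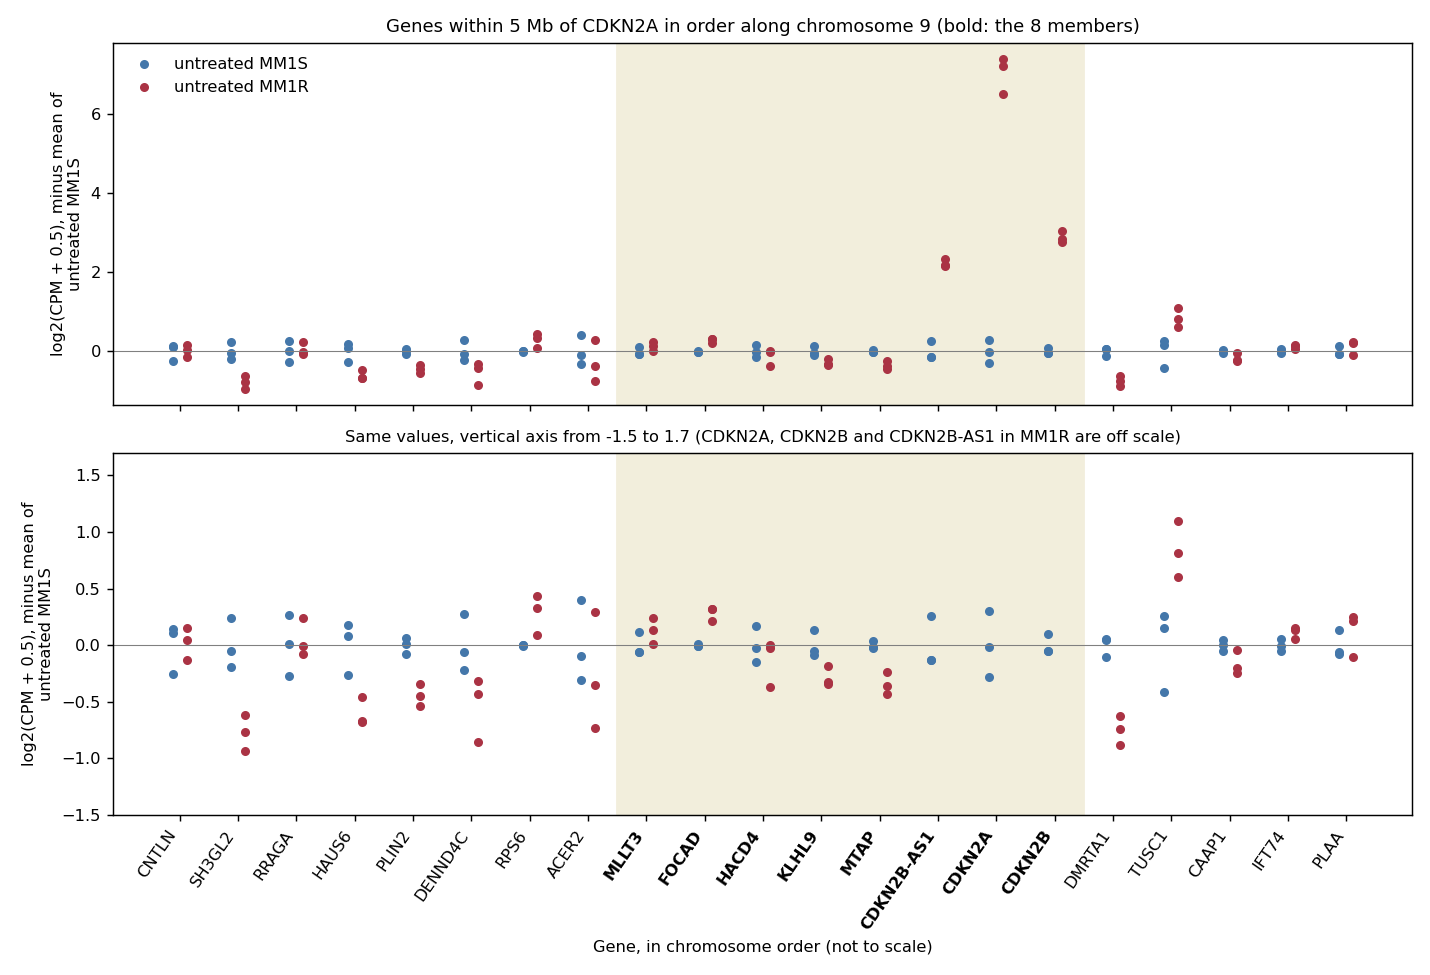
Untreated libraries of MM1S (blue) and MM1R (red) along 9p21, as log2(CPM + 0.5) minus the mean of untreated MM1S, for the 8 genes (bold, shaded) and the 13 tested genes within 5 Mb in chromosome order, with the lower panel enlarging the range from -1.5 to 1.7. CDKN2B-AS1, CDKN2A and CDKN2B stand above all other genes in MM1R, and no library of another gene lies above 1.09; the added 0.5 CPM lowers the differences of low genes.

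Genes outside the 8 were chosen by position alone, so their difference between the lines could be tested, by the limits of the study (adjusted p under 0.01 and a log2 fold change of at least 1 in size). Within 5 Mb of the start of CDKN2A the table held 47 other genes. Of these, 34 had too few reads to be tested, among them the interferon gene cluster between HACD4 and MTAP, whose genes had at most 2 reads in any library, and CDKN2A-DT, the divergent transcript of the locus, with at most 1. Of the 13 tested genes, 0 passed the limits between untreated MM1R and MM1S by edgeR's quasi-likelihood test and 0 by DESeq2. By edgeR, 2.97% of all tested genes passed. An unadjusted p under 0.05 by edgeR was found for 7 of the 13 (2 higher and 5 lower in MM1R), beside 3649 of all 14085 tested genes. With WA, 0 passed by either tool, where 3.04% of all tested genes passed by edgeR. There 6 of the 13 had an unadjusted p under 0.05 by edgeR, beside 3944 of all 14085 tested genes. The median log2 difference of MM1R from MM1S over the 13 genes was -0.17 untreated and -0.28 with WA, beside 0.01 and -0.01 over all tested genes. These comparisons of the lines share no library with each other, but each shares its libraries with the WA comparisons below. Without the MM1S library with WA of passage 16, 1 gene passed (SH3GL2).

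The nearest tested gene on the centromeric side was DMRTA1, a DMRT family transcription factor gene 451523 bp from the start of CDKN2A. Untreated MM1S had 10.3 to 11.6 CPM and untreated MM1R 5.82 to 7.03 CPM, with no overlap. MM1R was lower, at a log2 fold change of -0.79 (SE 0.18, edgeR adjusted p = 0.0115), which misses the adjusted p of 0.01 and the size limit. With WA the log2 fold change was -0.65 (SE 0.18, edgeR adjusted p = 0.0340). On the telomeric side beyond MLLT3, the nearest tested gene was ACER2, which encodes alkaline ceramidase 2, 2586293 bp away. Its log2 difference of MM1R from MM1S was -0.33 untreated (SE 0.39, edgeR adjusted p = 0.641).

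In MM1R with WA, MTAP fell, and no other member passed an adjusted p of 0.05, which is 1 of the 7 tested members beside 14.0% of all tested genes. Untreated MM1R had 47.1, 53.8 and 49.6 CPM of MTAP at passages 4, 6 and 7, and 36.0, 37.1 and 32.2 CPM with WA. The groups did not overlap, and MTAP was lower with WA at 3 of 3 passages, with log2 changes of -0.38, -0.53 and -0.61. The fitted log2 fold change was -0.51 (SE 0.13, edgeR adjusted p = 0.0162). Leaving out the untreated library of passage 6 (adjusted p = 0.0847) or the WA library of passage 7 (adjusted p = 0.0857) ended the call. Over all alternatives its edgeR or DESeq2 adjusted p lay between 0.00275 and 0.0857.

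In MM1S, MTAP had 62.6, 63.1 and 65.1 CPM untreated at passages 16, 22 and 23, and 41.8, 60.0 and 49.3 CPM with WA. MTAP was again lower in all 3 WA cultures, by 0.07 at passage 22 and by more at the others (log2 changes of -0.58 at passage 16 and -0.40 at passage 23). The fitted log2 fold change of -0.34 (SE 0.13) did not pass (edgeR adjusted p = 0.107). MTAP, KLHL9, FOCAD and MLLT3 were not called in MM1S, by edgeR or by DESeq2, where edgeR called 10.5% of all tested genes. Of these genes MTAP alone had an unadjusted p under 0.05 by edgeR, as had 3503 of the 14085 tested genes. CDKN2A, CDKN2B and CDKN2B-AS1 passed the read filter through MM1R. They had too few reads in MM1S for a call there and are not counted. With passage as a replicate block, MTAP passed at -0.35 (SE 0.10, edgeR adjusted p = 0.0289), and it also passed without the WA library of passage 22 (adjusted p = 0.0231). The difference between the lines in the MTAP change was -0.18 (MM1R minus MM1S, SE 0.18, edgeR adjusted p = 1.00).

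CDKN2A itself did not pass a test of WA in MM1R. Its log2 fold change was 0.05 (SE 0.26, edgeR adjusted p = 0.940), and a range of 2 SE on either side ran from -0.47 to 0.56, while with passage as a replicate block the SE was 0.091 and the range ran from -0.14 to 0.23 (edgeR adjusted p = 0.746). Its sign depended on single libraries, at -0.18 without the untreated library of passage 4 and -0.17 without the WA library of passage 7. CDKN2B was 0.45 higher with WA on the log2 scale (2 SE range -0.10 to 1.00, edgeR adjusted p = 0.320), and higher at 3 of 3 passages. CDKN2B-AS1 was at 0.23 (range -0.57 to 1.04, edgeR adjusted p = 0.768). In MM1S these 3 genes had at most 5 reads per library, and no fold is given.

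KLHL9 had a log2 fold change with WA of 0.32 in MM1R (2 SE range 0.03 to 0.62, edgeR adjusted p = 0.164) and of 0.11 in MM1S (edgeR adjusted p = 0.695). FOCAD had -0.19 in MM1R (edgeR adjusted p = 0.324) and -0.12 in MM1S (edgeR adjusted p = 0.616). MLLT3 had -0.22 in MM1R (edgeR adjusted p = 0.253) and -0.11 in MM1S (edgeR adjusted p = 0.624), with lower values at all 6 passages. For MTAP, KLHL9, FOCAD and MLLT3, the WA effect did not pass as different between the lines by edgeR, with 0 at an unadjusted p under 0.05. Over all tested genes edgeR called 0%, 97 had an unadjusted p under 0.05 and DESeq2 called 1. For CDKN2A, CDKN2B and CDKN2B-AS1 the few reads in MM1S cannot decide whether the effect differed.

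**Figure D3:**
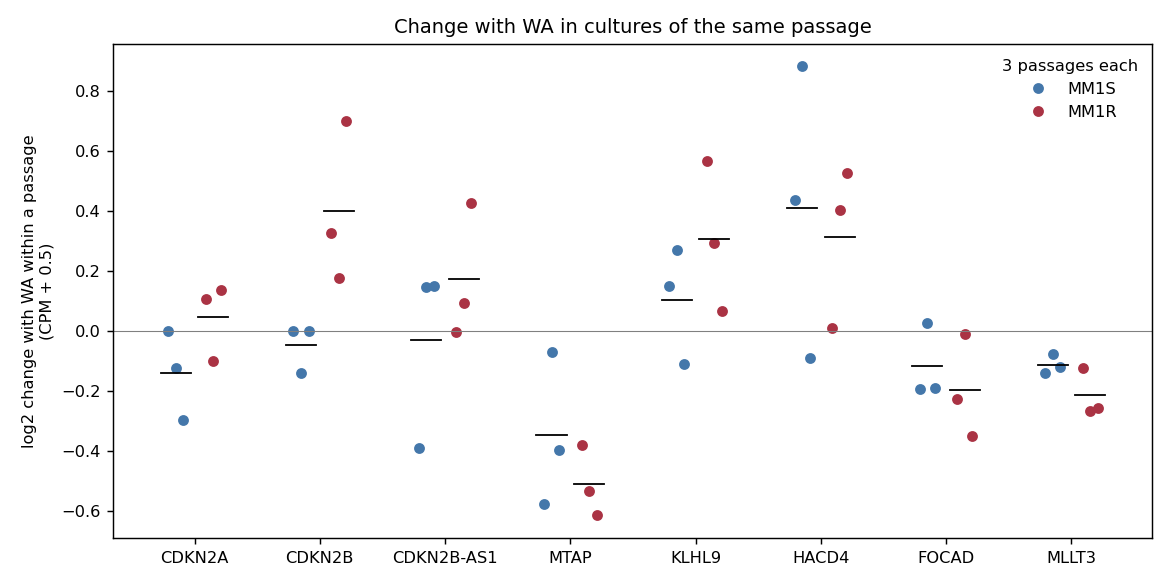
Log2 change with WA, on CPM + 0.5, between the cultures of the same passage for the 8 genes, with a point per passage (3 in MM1S, blue, and 3 in MM1R, red) and a line at their mean. MTAP lies below 0 at all 6 passages, and CDKN2A lies within 0.14 of 0 at the 3 passages of MM1R; the low genes (CDKN2A, CDKN2B and CDKN2B-AS1 in MM1S, and HACD4) rest on at most 15 reads per library.

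Among the genes within 5 Mb, WA changed 1 of 13 (7.69%) in each line by edgeR's test without a replicate block. The shares over all tested genes were 14.0% in MM1R and 10.5% in MM1S. In MM1R, CAAP1, an apoptosis regulator gene, fell (log2 fold change -0.55, SE 0.14, edgeR adjusted p = 0.0201). In MM1S, ACER2 rose (1.35, SE 0.36, edgeR adjusted p = 0.0309), and in MM1R its value was 1.19 (SE 0.38, edgeR adjusted p = 0.0530).

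The partners of the locus were examined through lists of 110 genes, of which 100 were tested. Between the lines, 2 passed the limits untreated and 2 with WA, which is 2 of 100 beside 2.97% and 3.04% of all tested genes. Untreated, MDM2, the ubiquitin ligase that p14ARF binds, was higher in MM1R. It had 4711 to 6201 reads in untreated MM1S and 9117 to 10622 in untreated MM1R, without overlap, and a log2 fold change of 1.03 (SE 0.15, edgeR adjusted p = 0.00067), just past the size limit. MDM2 lost the call without the untreated MM1S library of passage 16 (0.99) or 22 (0.96) or the untreated MM1R library of passage 7 (0.93). CDKN1A, chosen after its values were seen, had a larger untreated log2 fold change of 1.69 (SE 0.45, edgeR adjusted p = 0.0273). It missed the adjusted p of 0.01, and passed with no filter on low counts. PCGF3, a subunit of a variant Polycomb repressive complex, was lower in MM1R, with 301 to 320 reads in untreated MM1S and 45 to 101 in untreated MM1R (log2 fold change -2.15, SE 0.30, edgeR adjusted p = 0.00046). It stayed lower with WA (-1.38, SE 0.28, edgeR adjusted p = 0.0062). The other gene past the limits with WA was CCNE2, an E-type cyclin, with 42 to 65 reads in MM1S and 11 to 22 in MM1R (-1.61, SE 0.29, edgeR adjusted p = 0.0029).

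Transcripts of the proteins that p16INK4a and p14ARF act on were read in both lines. CDK4 had 92.5 ± 11.9 CPM in untreated MM1S and 89.6 ± 17.9 in untreated MM1R (edgeR adjusted p = 0.890). CDK6 had 256 ± 26.3 CPM in untreated MM1S and 166 ± 27.7 in untreated MM1R, a log2 difference of -0.63 (SE 0.17, edgeR adjusted p = 0.0282) that missed the limits. RB1 had 51.0 to 52.7 CPM in untreated MM1S and 32.9 to 47.1 in untreated MM1R (edgeR adjusted p = 0.194). Of the other INK4 inhibitors, CDKN2C had 0 reads in all 12 libraries, and CDKN2D had 9.63 ± 3.46 CPM in untreated MM1S and 7.97 ± 0.423 in untreated MM1R (edgeR adjusted p = 0.472). CDK4, CDK6, CDKN2C and CDKN2D fall outside the rule for named genes and were chosen for their role, after values were seen, as targets or relatives of the 2 proteins.

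The list of possible regulators of the locus took in Polycomb and DNA methyltransferase genes by family, and no gene's role there was tested. Of its 28 tested genes, 1 passed the limits in each comparison of the lines (PCGF3). The largest fitted difference among them was that of TBX2, a T-box repressor described at this locus, which missed the limits by edgeR, passed them by DESeq2, and was chosen after its values were seen, as were KDM6A and EZH2. It had 35, 19 and 6 reads in untreated MM1S at passages 16, 22 and 23, and 1, 1 and 0 in untreated MM1R at passages 4, 6 and 7 (edgeR adjusted p = 0.0227). The median log2 difference over the 28 tested genes of this list was -0.21 untreated, beside 0.01 over all tested genes. Of the 28, 21 were lower in MM1R, beside 6939 of all 14085 tested genes and 66 of the 100 tested list genes. KDM6A, an H3K27me3 demethylase, was higher in MM1R, at 0.82 untreated (SE 0.12, edgeR adjusted p = 0.00051) and 0.90 with WA (SE 0.12, adjusted p = 0.00022), also short of the size limit. EZH2, the methyltransferase of Polycomb repressive complex 2, was at -0.52 (SE 0.20, edgeR adjusted p = 0.104), and DNMT1 and DNMT3B, which methylate DNA, were at -0.38 (adjusted p = 0.0509) and -0.89 (SE 0.17, edgeR adjusted p = 0.0034, short of the size limit).

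WA changed 21 of the 100 list genes in MM1R (6 rose and 15 fell), or 21%, beside 14.0% of all tested genes. In MM1S it changed 17 (6 rose and 11 fell), or 17%, beside 10.5%. With passage as a replicate block the counts were 43 and 36. There all tested genes gave 4094 and 3399 calls instead of 1973 and 1476. The counts and calls per list below are without the block, so genes given as not passing may pass with it. Without the untreated MM1R library of passage 6 the MM1R count was 12, and without the untreated MM1S library of passage 22 or the WA library of passage 23 the MM1S count was 11.

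Of 26 tested genes of the CDK4/6 and RB1 axis, 8 fell and 1 rose in MM1R, where 6.46% of all tested genes fell and 7.55% rose, with a median log2 change of -0.38, and in MM1S 6 fell and 1 rose, where 4.23% fell and 6.25% rose, with a median of -0.21, beside medians of 0.01 over all tested genes in both lines. E2F4, a transcription factor bound by RB1 family proteins, fell in MM1R (-0.78, SE 0.10, edgeR adjusted p = 0.00026) and in MM1S (-0.54, SE 0.10, adjusted p = 0.0038). CCND1, which encodes cyclin D1, a D-type cyclin that activates CDK4 and CDK6, had 8.57 to 12.5 CPM in untreated MM1R and 3.22 to 4.75 with WA (-1.39, SE 0.20, edgeR adjusted p = 0.00068). CCND1 fell in MM1S as well (-0.79, SE 0.20, edgeR adjusted p = 0.0212). The D-type cyclin genes CCND2 and CCND3, named after their values were seen, were read more, with means of 689 and 70.7 CPM in untreated MM1R. They did not pass with WA in MM1R (-0.65, edgeR adjusted p = 0.0806, and -0.22, adjusted p = 0.287). In MM1S they did not pass either (-0.68, edgeR adjusted p = 0.0809, and -0.15, adjusted p = 0.524). RB1 itself fell from 32.9 to 47.1 CPM in untreated MM1R to 20.2 to 23.3 with WA (-0.91, SE 0.15, edgeR adjusted p = 0.0013), and from 51.0 to 52.7 CPM in untreated MM1S to 27.7 to 37.1 with WA (-0.67, SE 0.14, adjusted p = 0.0098). E2F5 fell in both lines (-1.37 in MM1R and -1.54 in MM1S), and so did E2F8 (-1.17 in MM1R, and from a mean of 65.2 to 32.5 CPM in MM1S), both of which are repressive E2F factors. The gene that rose was CDKN1A, the CDK inhibitor p21, named after its values were seen. It went from 218 to 339 CPM in untreated MM1R to 474 to 1327 with WA (1.56, SE 0.45, edgeR adjusted p = 0.0326), and from 42.4 to 115 CPM in untreated MM1S to 182 to 520 with WA (1.82, SE 0.45, adjusted p = 0.0219). CDK4, CDK6 and CDKN2D did not pass in either line.

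On the p14ARF and MDM2 side, 0 of 8 genes passed in MM1R by edgeR, and 2 of 8 in MM1S, beside 14.0% and 10.5% of all tested genes. MDM2 rose in MM1S (0.53, SE 0.15, edgeR adjusted p = 0.0392), and its value in MM1R was -0.14 (SE 0.15). CTBP1, a corepressor that p14ARF binds, fell in MM1S (-0.39, SE 0.10, edgeR adjusted p = 0.0244) and had -0.26 in MM1R (adjusted p = 0.0994).

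Of the 28 tested genes listed as possible regulators of the locus, 5 passed in MM1R (3 rose and 2 fell) and 4 in MM1S (2 rose and 2 fell). These are 17.9% and 14.3%, beside 14.0% and 10.5% of all tested genes. ETS2, which encodes an activator of p16INK4a, fell in both lines (-1.55 in MM1R and -1.25 in MM1S), from 40 to 44 reads in untreated MM1R to 10 to 18 with WA. DNMT1 fell by 0.61 in MM1R and by 0.59 in MM1S on the log2 scale. KDM6B, a demethylase of the Polycomb mark H3K27me3, rose in both lines (0.96 and 0.88), and DNMT3B rose as well (0.55 and 0.56). PCGF3 rose in MM1R (1.12, SE 0.30, edgeR adjusted p = 0.0250), and its value in MM1S was 0.35 (adjusted p = 0.472). CDKN2A did not pass in the same MM1R libraries, as given above.

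Beside MTAP, 14 genes of methionine salvage and polyamine synthesis were tested. In MM1R 1 of them, AMD1, fell (-0.81, SE 0.20, edgeR adjusted p = 0.0149). It encodes the decarboxylase that supplies the aminopropyl donor from which the substrate of MTAP is formed. In MM1S it had -0.61 (adjusted p = 0.0643), and 0 of the 14 passed by edgeR. The shares over all tested genes were 14.0% and 10.5% respectively. The median log2 change was -0.22 in MM1R and -0.15 in MM1S, beside 0.01 over all tested genes in both lines. Of the 14, 12 and 10 were negative, beside 6843 and 6773 of all 14085 tested genes.

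Among paralogs and partners of the other members, 6 of 24 passed in MM1R (2 rose and 4 fell) and 4 of 24 in MM1S (2 rose and 2 fell), or 25% and 16.7%, beside 14.0% and 10.5% of all tested genes. MLLT1, the paralog of MLLT3 that encodes ENL, fell in both lines (-0.76 in MM1R, SE 0.11, edgeR adjusted p = 0.00070, and -0.66 in MM1S). CDK9, the elongation kinase that works with both proteins, fell too (-0.86 and -0.74). KLHL21, a relative of KLHL9, rose (0.80 and 0.75), and so did ELOVL5, a fatty acid elongase (0.46 and 0.49).

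**Figure D4:**
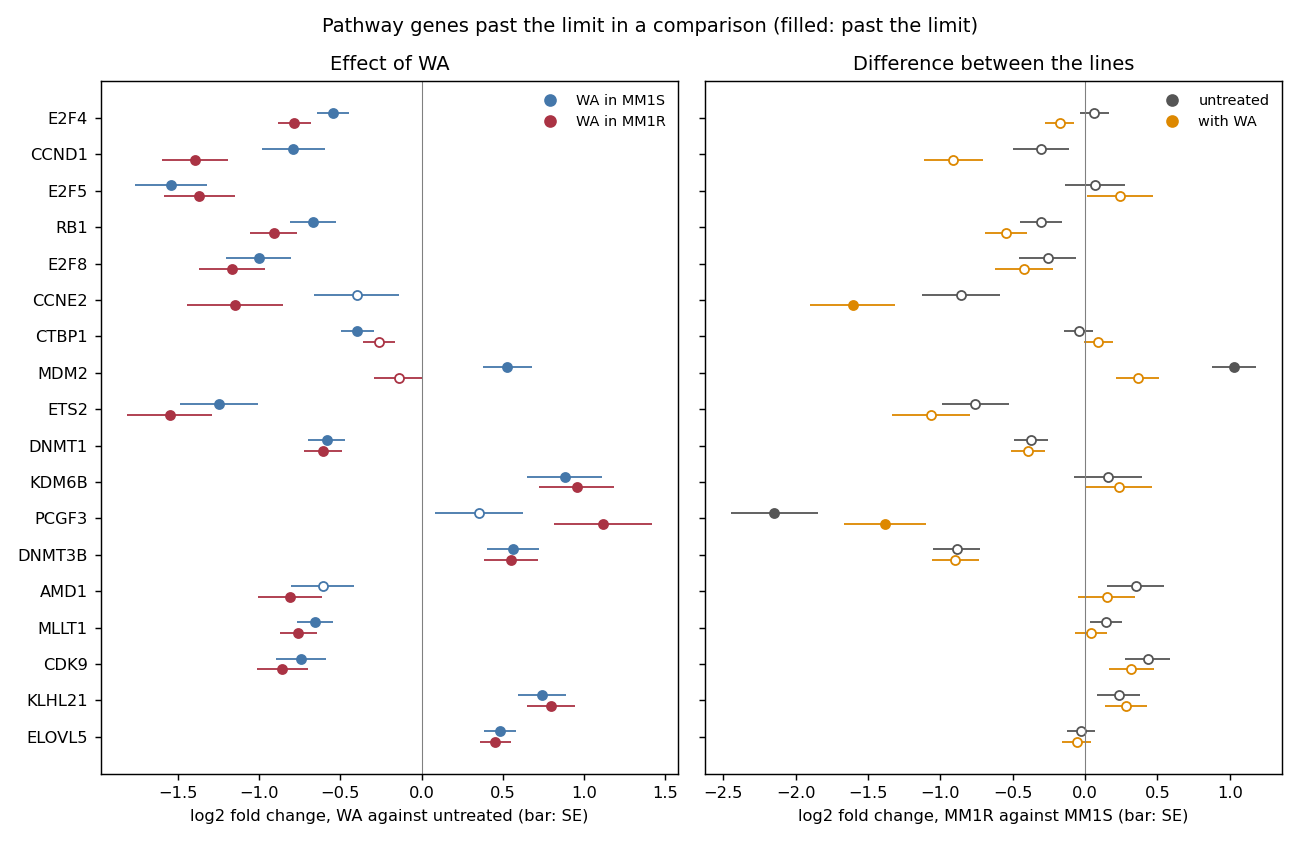
Log2 fold changes with SE bars (edgeR, 12 libraries) of the listed pathway genes named by the smallest p, for WA against untreated in each line (left) and for MM1R against MM1S in each treatment (right), with filled points past the limit of that comparison. All of these genes but MDM2 have the same sign with WA in both lines, and only MDM2 (untreated), PCGF3 (both treatments) and CCNE2 (with WA) are filled on the right.

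Last, the whole table was searched for profiles like that of CDKN2A, by the root mean square difference of centered log2(CPM + 0.5) values over the 12 libraries. The most alike was CTAG2, a cancer-testis antigen gene on the X chromosome, at 0.35, followed by SSX1 at 1.04, NES at 1.08, LINC01518 at 1.20 and NLRP11 at 1.32. CTAG2 had 0 to 6 reads in untreated MM1S and 944 to 1275 in untreated MM1R, and 0 to 2 and 787 to 976 with WA. SSX1, another cancer-testis antigen gene, had 0 or 1 read in untreated MM1S and 264 to 346 in untreated MM1R. NES, which encodes the intermediate filament nestin, had 14 to 36 reads in untreated MM1S and 1033 to 1215 in untreated MM1R, and NLRP11, of the NLR family, had 121 to 212 and 3509 to 3790. LINC01518, a long noncoding RNA, had 1 or 2 reads in untreated MM1S, 195 to 243 in untreated MM1R and 665 to 877 in MM1R with WA, whereas the log2 change of CDKN2A with WA was 0.05. By this measure CDKN2B ranked 21 at 2.03 and CDKN2B-AS1 ranked 44 at 2.41, while FOCAD ranked 3020, MLLT3 5357, KLHL9 10120 and MTAP 12640 of 14085 tested genes. The points share libraries and depth, and the added 0.5 CPM flattens low genes, so the ranks are a description.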

How the data were processed

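Total RNA of MM1S and MM1R cultures was sequenced as paired reads on a BGISEQ-500. Per the labels and the methods of the study, the authors checked reads with FastQC 0.11.5, mapped them to hg19 with STAR 2.7.3a and deposited a table of raw read counts per gene, which was used here. The gene annotation and strand setting of the counting are not given in the sources used here. A table of normalized values by the authors was not used, and some listed genes are not reported here.

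The 12 libraries (4 groups of 3) were analyzed in R 4.3.3 with edgeR 4.0.16 (TMM factors, filterByExpr with a minimum count of 10, quasi-likelihood test on 4 groups in 1 fit, Benjamini-Hochberg adjustment over 14085 genes). WA effects and their difference between lines were called at an adjusted p of 0.05, and lines at 0.01 with a log2 fold change of at least 1 in size. Ratios of the lines carry exact binomial 95% counting intervals, which cover counting error only. Counts of 0 were set against a floor of 3 reads, and log2 CPM used a pseudocount of 0.5. Gene positions were taken from GENCODE v44 lifted to GRCh37. The members and lists were chosen with earlier results of these data known. Named genes were the 8 members, flanking genes past the limits and the nearest tested on either side, up to 4 genes of smallest p per list and comparison, and the 5 profiles most like CDKN2A, besides genes said to be chosen otherwise. The scripts were tested on simulated data. No replicates were duplicates, as replicate pairs differed by 8.16 to 46.5 times the chi-square of counting noise per degree of freedom.

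The passage numbers of the labels link an untreated and a WA culture. Deviations from the group mean correlated at 0.22 to 0.74 within a passage, above 0.1 in all 6 pairs. For MM1S passage 22 another passage was closer (0.35 against 0.26). The pairing rests on the labels, and these correlations alone cannot establish it. The main fit had no block. The fit with passage as a block was an alternative, and its values are given only for members and for the totals of list genes. Counts per list, single list genes and flanking genes with WA come from the main fit and may differ with the block. Other alternatives were DESeq2 1.42.0, its size factors, other count filters and fits of only the compared libraries. No limit on fold change, windows of 2 and 10 Mb and leaving out each library were also tried. The lines share no passage, so their comparison could not be blocked.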

Additional observations from a re-analysis of the deposited data

Results flagged for a closer look

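The WA effect on MDM2 was singled out because all 3 passages of one line moved opposite to all 3 of the other. The log2 change with WA was -0.16 to -0.12 in MM1R and 0.39 to 0.59 in MM1S. The difference of the effects, MM1R minus MM1S, was -0.67 (SE 0.21), with an edgeR adjusted p of 1.00 over all tested genes and an unadjusted p of 0.0073. MDM2 had 475 to 619 CPM in untreated MM1R and 436 to 553 with WA, and 243 to 308 CPM in untreated MM1S and 333 to 462 with WA, so the untreated difference between the lines (log2 1.03) was smaller with WA (0.36). The WA and line comparisons share these libraries.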

How the results depend on the processing

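Of 263 fold changes of members computed under alternatives, 254 kept their sign and their side of the threshold. The log2 ratio of CDKN2A between untreated MM1R and MM1S (9.40) lay between 8.82 and 10.60 when a library was left out and between 9.38 and 9.41 under the other settings. The number of members changed by WA was 0 to 1 in each line when a library was left out, and with the replicate block it was 1 in MM1S (MTAP, at -0.35). Leaving out a library turned the sign of values that did not pass: the WA change of CDKN2A in MM1R ranged from -0.18 to 0.25 and was -0.17 without the WA library of passage 7, and the difference between lines in the WA effect ranged from -0.17 to 0.013 for FOCAD (0.011 without the MM1S library with WA of passage 22) and from -0.17 to 0.0027 for MLLT3. MTAP in MM1R was -0.47 and -0.43 without the 2 libraries that ended its call. Flanking genes past the limits with WA numbered 0 to 1 when a library was left out and 1 with no limit on the fold change (PLIN2, -0.73). Within 10 Mb 22 flanking genes were tested and 0 passed between the lines in either treatment by edgeR, and within 2 Mb only DMRTA1 was tested. List genes past the limits between untreated lines numbered 2, but 4 with no filter on low counts (where 811 of 26497 genes passed), 7 with no limit on the fold change and 1 to 3 when a library was left out (1 without the untreated MM1S library of passage 16 or of passage 22). List genes changed by WA numbered 43 in MM1R and 36 in MM1S with the replicate block, and 12 to 27 and 11 to 20 when a library was left out. The block changed no other call of a member. The cause of these shifts was not tested. The 0 to 5 reads of CDKN2A, CDKN2B and CDKN2B-AS1 in MM1S limit any fold there.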
